A study of Mus musculus with 6 samples.

Results

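Cd28, Icos, Cd2, Cd5, Cd6 and Cd40lg encode receptors and a ligand with which T cells read or give signals on contact with other cells. They were taken by gene name from a table of 55450 genes measured in regulatory T (Treg) cells, and all 6 names matched 1 row each. Treg cells are CD4 T cells that depend on the factor Foxp3 and hold immune responses in check. The cells had been sorted from MC38 tumours, a transplanted mouse colon carcinoma, in C57BL/6 mice, and sequenced as 3 libraries from mice whose Treg cells lacked Tim-3 and 3 whose Treg cells were Tim-3 sufficient. Tim-3 is a receptor encoded by Havcr2. The labels give no allele, Cre driver, age or treatment, and nothing in them ties a library to a mouse. Each p-value therefore measures spread among libraries, part of which may be technical. From their column marks the libraries are called deficient C1, deficient D and deficient dated, and sufficient A1, sufficient B1 and sufficient dated, where "dated" marks the library in each group whose name held a calendar date.

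CD28 is the main co-stimulatory receptor of T cells. It binds CD80 and CD86 on antigen-presenting cells, signals through phosphatidylinositol 3-kinase and PKC-theta alongside the T cell receptor, and is required for Treg cells to form and persist. ICOS is its inducible relative, binds ICOS ligand and is abundant on effector Treg cells. CTLA-4, another member of the family, competes with CD28 for the same ligands and is a means by which Treg cells suppress. CD2 is an adhesion receptor that binds CD48 in mice. CD5 and CD6 are scavenger receptor cysteine-rich proteins that damp T cell receptor signalling, and CD6 binds ALCAM. CD40 ligand is a TNF family protein induced on activated helper T cells, and it acts on CD40 on B cells and other antigen-presenting cells.

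Between 11470 and 12681 genes reached 1 TPM (a length-corrected abundance, scaled to a fixed total per library), and read depth is unknown because TPM keeps no counts. Havcr2 was lower in each deficient library (3.54, 4.27 and 2.55 in C1, D and dated) than in each sufficient library (5.70, 5.64 and 4.49 in A1, B1 and dated) on the log2(TPM + 1) scale. Over the 12155 genes tested its adjusted p in limma was 0.211, and 0.0148 with the date mark as a block. All 7 markers of Treg cells reached 1 TPM in every library, with Foxp3 at 5.49 ± 0.062 in deficient and 5.18 ± 0.35 in sufficient libraries (SD, n = 3 each). They had values of both signs and limma called 0, although Nrp1, a surface receptor of many Treg cells, was called with the date mark as a block at 1.10 (adjusted p in limma = 0.0959, and 0.0362 with the block). Izumo1r, the folate receptor FR4, had -0.69 (adjusted p in limma = 0.258), and the groups did not overlap at Nrp1 or Izumo1r. Il2ra, the CD25 chain of the IL-2 receptor, had -0.67 with overlap (adjusted p in limma = 0.464). Foxp3 and Il2ra were chosen with their values known. Transcripts of 12 myeloid genes summed to 2128, 474 and 477 TPM in deficient C1, D and dated, and to 694, 1857 and 475 TPM in sufficient A1, B1 and dated. All 12 reached 1 TPM in deficient C1 and 11 in sufficient B1, against 5 to 9 in the other 4 libraries, and Csf1r and Adgre1 were listed at 0 in deficient D and deficient dated. Cst3 alone held 544.5, 427 and 451 TPM of the sums in deficient C1, D and dated. In sufficient A1, B1 and dated it held 503, 813 and 447 TPM. It made up most of the myeloid sum in every library except deficient C1 and sufficient B1. B cell markers summed to 186, 203 and 243 TPM in deficient C1, D and dated, above the 56.2, 51.2 and 173 TPM in sufficient A1, B1 and dated. Igkc, the immunoglobulin kappa constant region, made up most of that sum, at 172, 172 and 196 TPM in deficient and 46.0, 36.4 and 150.4 TPM in sufficient libraries in the same order (log2 fold change 1.49, adjusted p in limma = 0.263). Cd79b, a signalling chain of the B cell receptor, stood at 13.6 to 45.5 TPM in deficient and 10.2 to 22.0 TPM in sufficient libraries, while Ms4a1, which encodes CD20, was listed at 0 in every library. Of the epithelial markers, Epcam stood at 10.9 to 23.9 TPM in deficient and 8.39 to 16.4 TPM in sufficient libraries, and Krt8 and Krt19 were listed at 0 in every library. The part of these transcripts in the results was not tested.

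No member differed between Tim-3 deficient and Tim-3 sufficient Treg cells at an adjusted p under 0.05. All 6 passed the filter on low values, and limma called 0 of them over all tested genes, where it called 0.206% of genes. These were 16 genes higher in deficient cells (0.132%) and 9 genes lower (0.074%). The split of those calls depended on scaling, with 16 higher and 22 lower after quantile normalization and 11 higher and 19 lower after median centring. At an unadjusted p under 0.05 the count of members was 1, Cd5, against 11.7% of all genes. The fold changes of Icos, Cd5, Cd2, Cd6 and Cd28 were negative and that of Cd40lg positive, with a median of -0.17 over the 6 members, beside 0.094 over all tested genes. Groups did not overlap at 1 member, again Cd5, and at 17.6% of all genes.

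**Figure D1:**
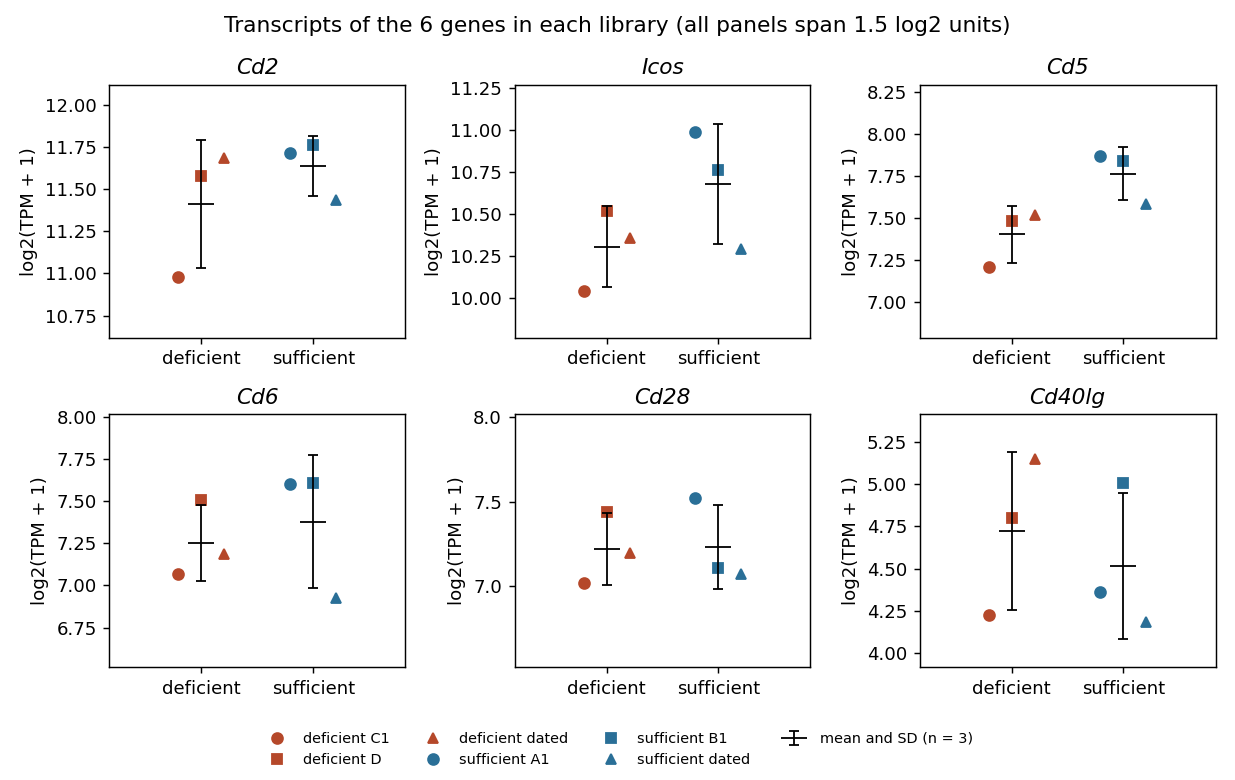
Level of each of the 6 transcripts in log2(TPM + 1) on the vertical axis, with 1 point per library, deficient libraries in red and sufficient libraries in blue, triangles for dated libraries, and a black bar for the group mean and SD (n = 3). Only the panel of Cd5 shows no overlap between the groups, and deficient C1 lies lowest for Cd2, Icos, Cd5 and Cd28.

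Cd28, on chromosome 1 (ENSMUSG00000026012.2, GRCm38, 60716800 to 60773359, plus strand), stood at 128, 173 and 145 TPM in deficient C1, D and dated, against 182, 137 and 134 TPM in sufficient A1, B1 and dated. The groups overlapped, and sufficient A1 was the highest library. On the log2(TPM + 1) scale the means were 7.22 ± 0.21 in deficient and 7.23 ± 0.25 in sufficient libraries (SD, n = 3 each). The log2 fold change was -0.016 ± 0.18 (SE, adjusted p in limma = 0.984), which is 0.989-fold with a 95% interval of 0.738 to 1.33. Larger changes than those bounds lie outside the interval, while smaller ones cannot be told from none with these libraries. Its sign turned when single libraries were left out, at 0.085 without deficient C1 and 0.13 without sufficient A1.

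Icos lies 205 kb beyond Cd28 on the same strand of chromosome 1 (ENSMUSG00000026009.14, 60977927 to 61000320), with Ctla4 between them. It was the stronger of the pair by level, at 1056, 1464 and 1312 TPM in deficient C1, D and dated and 2029.8, 1735 and 1253 TPM in sufficient A1, B1 and dated. The undated sufficient libraries stood above all the rest, while sufficient dated lay below deficient D and deficient dated, so the groups overlapped. The means were 10.31 ± 0.24 in deficient and 10.68 ± 0.36 in sufficient libraries (SD, n = 3 each), a log2 fold change of -0.37 ± 0.21 (SE, adjusted p in limma = 0.527) or 0.772-fold with a 95% interval of 0.553 to 1.08. Gm37039, an annotated locus on the same strand, lies inside Icos. On the log2(TPM + 1) scale it averaged 2.46 in deficient and 2.68 in sufficient libraries, far below Icos; reads were not separated between them here. Ctla4, like Icos, was highest in the undated sufficient libraries. Its log2(TPM + 1) values were 10.18, 10.48 and 10.12 in deficient C1, D and dated and 10.76, 10.74 and 10.03 in sufficient A1, B1 and dated, and did not pass at -0.25 (adjusted p in limma = 0.689). Beyond Icos the next tested gene, Ino80d, a subunit of a chromatin remodelling complex, lay 1958 kb away and had -0.22 (adjusted p in limma = 0.900). The tested loci beside Cd28 were Eif4a-ps4, a pseudogene whose reads can be shared with its parent gene, at 1.01, and the predicted gene Gm11579 at -0.083 (adjusted p in limma = 0.316 and 0.944).

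The balance of the 2 co-stimulatory receptors was also read within each library, where it does not depend on the TPM total. Icos exceeded Cd28 by a ratio of 8.17 to 8.97 in deficient and 9.31 to 12.6 in sufficient libraries (TPM + 1). The log2 ratio was 3.03, 3.08 and 3.16 in deficient C1, D and dated, against 3.47, 3.66 and 3.22 in sufficient A1, B1 and dated. The groups did not overlap, but the gap between the dated libraries was small. The difference was -0.36, with an exact two-sided permutation p of 0.1, the smallest that 3 against 3 libraries can give, and 0.6 after adjustment over the 8 ratios tested. Undated libraries gave -0.51 and the dated pair gave -0.054.

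Cd2 was the most abundant member (ENSMUSG00000027863.8, chromosome 3, 101275899 to 101287939, minus strand), at place 39 of the 12155 tested genes by mean level. It stood at 2014, 3057 and 3291 TPM in deficient C1, D and dated, and at 3360.2, 3470.4 and 2767 TPM in sufficient A1, B1 and dated. Deficient C1 alone lay far below the other 5 libraries. The log2 fold change was -0.22 ± 0.21 (SE, adjusted p in limma = 0.708), or 0.856-fold with a 95% interval of 0.616 to 1.19, and it was -0.0053 without deficient C1. The tested loci beside it, the predicted genes Gm12490 and Gm10355, had -0.22 and 0.45 (adjusted p in limma = 0.876 and 0.848). Cd48, the ligand of CD2 in mice and a gene chosen after its values were seen, averaged 9.43 log2(TPM + 1) in deficient and 9.19 in sufficient libraries, a fold change of 0.24 that did not pass (adjusted p in limma = 0.698).

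Cd5 was the member with the clearest separation (ENSMUSG00000024669.8, chromosome 19, 10717116 to 10739002, minus strand). Its values were 147, 177 and 182.5 TPM in deficient C1, D and dated, against 233, 228 and 191 TPM in sufficient A1, B1 and dated. Every deficient library lay below every sufficient one, although deficient dated and sufficient dated were close. On the log2(TPM + 1) scale the means were 7.40 ± 0.17 in deficient and 7.76 ± 0.16 in sufficient libraries (SD, n = 3 each). The log2 fold change of -0.36 ± 0.15 (SE) had an unadjusted p of 0.0476 and an adjusted p of 0.420 in limma, and the 0.779-fold level had a 95% interval of 0.609 to 0.997. Groups that do not overlap with the deficient one lower were found at 6.73% of all tested genes. Its sign was kept without each library in turn, between -0.45 and -0.26.

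Cd6, the neighbour and relative of Cd5 (ENSMUSG00000024670.17, chromosome 19, 10789341 to 10830058, minus strand), lies 50.3 kb away on the same strand. It stood at 133, 181 and 145 TPM in deficient C1, D and dated and 194, 194 and 120.3 TPM in sufficient A1, B1 and dated. The undated sufficient libraries were highest and sufficient dated was lowest, so the groups overlapped. The log2 fold change was -0.12 ± 0.22 (SE, adjusted p in limma = 0.865), or 0.918-fold with a 95% interval of 0.642 to 1.31. Within a library Cd5 exceeded Cd6 by a log2 ratio of 0.15 ± 0.18 in deficient and 0.39 ± 0.24 in sufficient libraries (SD, n = 3 each), and the difference of -0.24 had an exact permutation p of 0.3. Alcam, which encodes the CD6 ligand, averaged 2.90 ± 0.22 log2(TPM + 1) in deficient and 3.79 ± 0.36 in sufficient libraries (SD, n = 3 each). The groups did not overlap at Alcam, and its fold change of -0.89 did not pass (adjusted p in limma = 0.262).

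Between Cd5 and Cd6, on the opposite strand, lies A430093F15Rik (ENSMUSG00000067577.8, chromosome 19, 10740947 to 10786043), which the annotation lists as a processed transcript with no protein. Its annotated start is 1.94 kb from that of Cd5, so the pair are transcribed away from each other. It stood at 77.4, 101 and 121 TPM in deficient C1, D and dated, against 208, 214 and 235 TPM in sufficient A1, B1 and dated. The groups lay well apart, with a log2 fold change of -1.14 ± 0.19 (SE) that narrowly missed the threshold (adjusted p in limma = 0.0727). It was called with a block for the date mark (0.0159), without deficient dated (0.0248) and without both dated libraries (0.0245), and over all alternatives its adjusted p ran from 0.0159 to 0.460. Undated libraries gave a difference of -1.24 and the dated pair one of -0.95. On the far side of Cd6, Slc15a3, a histidine and peptide transporter of endosomes, had -0.80 (adjusted p in limma = 0.348), and on the far side of Cd5, Vps37c, a subunit of the ESCRT-I sorting complex, had 0.31 (adjusted p = 0.697). No annotated gene overlaps Cd5, Cd6 or A430093F15Rik, so these 3 values do not share reads by position.

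**Figure D2:**
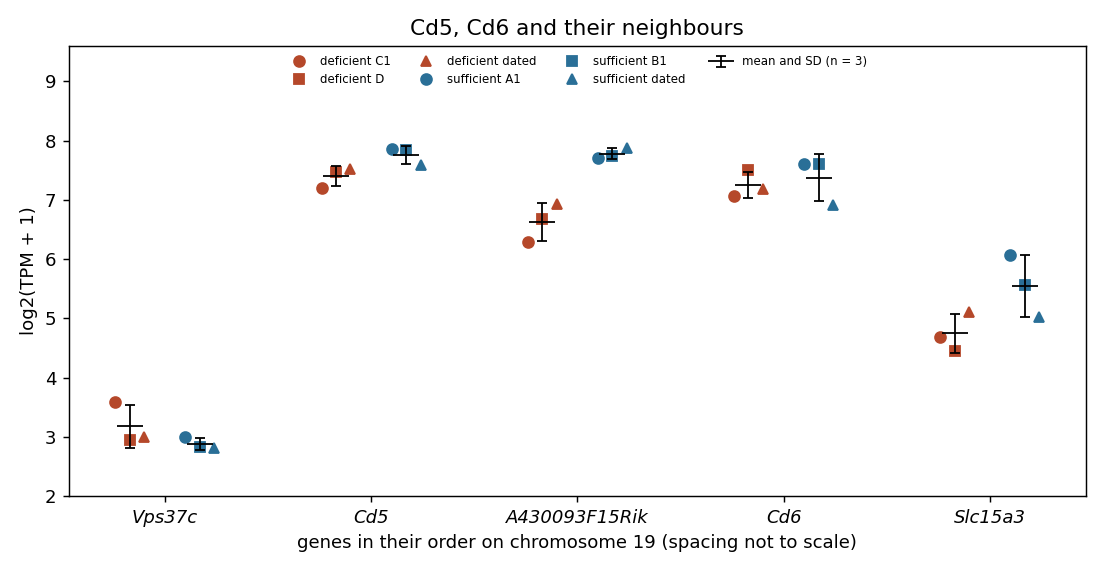
Level in log2(TPM + 1) of 5 genes in their order along chromosome 19, with 1 point per library, deficient left of sufficient, and a black bar for the group mean and SD (n = 3). A430093F15Rik averages 6.63 in deficient and 7.78 in sufficient libraries with no overlap, while the groups overlap at Cd6.

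The 250 bases before the RefSeq starts of Cd5 and A430093F15Rik (GRCm38.p6) are shown because these neighbours face away from each other and both stood lower in every deficient library. The windows lie at chr19:10738975-10739224 on the minus strand and chr19:10740697-10740946 on the plus strand. Capitals mark the letters GGAA on either strand, the core that ETS family factors bind.
Cd5: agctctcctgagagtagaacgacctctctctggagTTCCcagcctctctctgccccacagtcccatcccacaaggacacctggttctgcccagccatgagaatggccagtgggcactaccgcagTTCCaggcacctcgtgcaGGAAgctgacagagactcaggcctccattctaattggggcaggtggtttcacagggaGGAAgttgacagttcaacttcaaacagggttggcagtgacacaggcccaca
A430093F15Rik: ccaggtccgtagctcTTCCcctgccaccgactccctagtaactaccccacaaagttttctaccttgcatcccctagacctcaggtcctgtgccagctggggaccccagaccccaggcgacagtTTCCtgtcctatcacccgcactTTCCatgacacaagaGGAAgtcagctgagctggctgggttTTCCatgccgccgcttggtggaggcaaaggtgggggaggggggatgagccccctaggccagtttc
The Cd5 window holds 4 such cores and the A430093F15Rik window 5, with no overlap between cores, beside a median of 3 and at least 1 in 93.4% of the 32851 windows of this length. At least as many as in the Cd5 window were found in 33.4% of windows, and at least as many as in the A430093F15Rik window in 18.0%. Neither window holds TATAAA on either strand, which 12.4% of windows do. A match describes letters in a window and is not a binding site.

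Cd40lg was the least abundant member and alone had a positive fold change (ENSMUSG00000031132.1, X chromosome, 57212143 to 57224042, plus strand). It stood at 17.7, 26.8 and 34.4 TPM in deficient C1, D and dated, and at 19.5, 31.1 and 17.1 TPM in sufficient A1, B1 and dated. The groups overlapped across almost their whole range, and the highest and lowest values belonged to the dated libraries. On the log2(TPM + 1) scale the means were 4.72 ± 0.47 in deficient and 4.52 ± 0.43 in sufficient libraries (SD, n = 3 each), and the log2 fold change was 0.21 ± 0.31 (SE, adjusted p in limma = 0.838), or 1.16-fold with a 95% interval of 0.702 to 1.90. The fold change was -0.0038 without deficient dated. That library alone had Xist above 0.03 on the log2(TPM + 1) scale (2.01) and Ddx3y near 0 (0.014, against 4.97 to 5.55 in the other 5), and the part of the sex of the mice in Cd40lg was not tested. Its neighbours on the X chromosome, Htatsf1 and Arhgef6, had fold changes of 0.14 and 0.18 (adjusted p in limma = 0.839 and 0.737). Cd40, the receptor for CD40 ligand, averaged 2.66 ± 0.22 in deficient and 0.999 ± 0.66 in sufficient libraries (SD, n = 3 each), with no overlap, and did not pass at 1.66 (adjusted p in limma = 0.153). In sufficient A1, B1 and dated it stood at 1.67, 0.34 and 0.98, so B1 and dated lay under the filter value of 1. Cd40 passed the filter only with the deficient libraries counted, and its fold change rests partly on values near the floor.

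The levels of the 6 transcripts, which TPM scales by length, differed widely. Cd2 averaged 2993 TPM over the 6 libraries and Icos 1475 TPM, and Cd2 was above Icos in 6 of 6 libraries although their ranges overlapped. Cd5 at 193 TPM, Cd6 at 161 TPM and Cd28 at 149.8 TPM had overlapping ranges. Within a library Cd5 exceeded Cd28 in 6 of 6, by a log2 ratio (TPM + 1) of 0.36 ± 0.24 (SD, n = 6). Cd5 exceeded Cd6 in 5 and Cd6 exceeded Cd28 in 4 of the 6 libraries, and the log2 ratio of Cd6 to Cd28, 0.091 ± 0.22, was smaller than its spread. Cd40lg at 24.5 TPM lay below the range of all the others.

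The direction of the differences changed with the date mark. Among the undated libraries all 6 members had negative differences, namely -0.59 for Icos, -0.51 for Cd5, -0.46 for Cd2, -0.32 for Cd6, -0.17 for Cd40lg and -0.085 for Cd28 on the log2(TPM + 1) scale. In the dated pair only Cd5 was negative, at -0.064, and the others were 0.97 for Cd40lg, 0.26 for Cd6, 0.25 for Cd2, 0.12 for Cd28 and 0.067 for Icos. A limma fit with an interaction of group and date mark, added after the data were seen, tested that change. No member passed, with unadjusted p between 0.0636 for Cd40lg and 0.585 for Cd28 and adjusted p of at least 0.822, and 2 of 12155 genes were called. The dated pair holds 1 library a group and has no replicate of its own. Its libraries also differed in transcripts of the sex chromosomes. Xist was at 2.01 log2(TPM + 1) in deficient dated and 0 in sufficient dated, and Ddx3y at 0.014 and 4.97. The part of the sex of the mice in the differences by date mark was not tested. With the date mark as a block limma called 1.97% of all genes and 0 members, and Cd5 had the smallest adjusted p of them at 0.215.

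**Figure D3:**
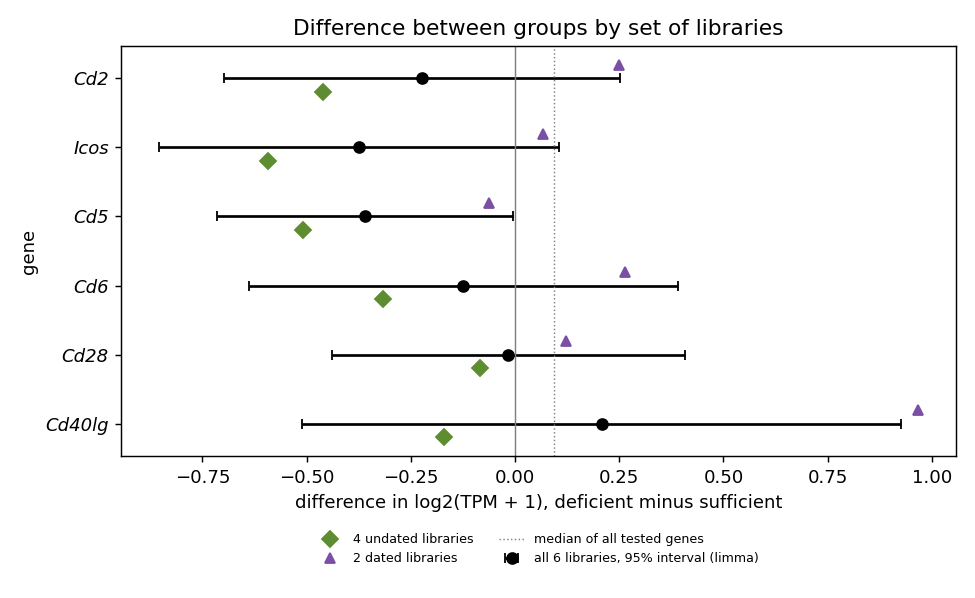
Difference in log2(TPM + 1), deficient minus sufficient, for each of the 6 genes, with the value over all 6 libraries and its 95% limma interval in black, the 4 undated libraries as green diamonds and the dated pair as purple triangles. The green diamonds all lie below 0, while the purple triangle does so only at Cd5.

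Deficient C1, which had the highest myeloid sum (2128 TPM), was the lowest library at 4 of the 6 members. Sufficient B1, with a myeloid sum of 1857 TPM, was lowest at none and highest at Cd2 and Cd6. Deficient C1 also held 275 TPM of Dcn, which encodes a proteoglycan of fibroblasts, against 2.92 to 22.9 TPM in the other deficient and 0.98 to 28.0 TPM in sufficient libraries. The other fibroblast markers on the list, Col1a1, Col1a2 and Pdgfrb, were under the filter on low values. They stood at 0.13, 0.38 and 0.69 TPM in deficient C1, against 0.67, 1.09 and 0.01 TPM in deficient D. These markers were named after their values were seen. In bulk libraries fewer Treg cells and less of a transcript per cell cannot be told apart. Without the library of most myeloid transcripts in each group, deficient C1 and sufficient B1, the fold changes were 0.057 for Cd2, 0.021 for Cd28, 0.082 for Cd6, 0.70 for Cd40lg, -0.20 for Icos and -0.23 for Cd5. The part of myeloid RNA, or of the cells that gave Dcn, in the differences was not tested further.

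Several general T cell transcripts stood lower in deficient libraries too. The mean of the 4 CD3 chains, the signalling subunits of the T cell receptor, was 9.10 ± 0.29 log2(TPM + 1) in deficient and 9.42 ± 0.055 in sufficient libraries (SD, n = 3 each), a difference of -0.32 (exact permutation p = 0.1, the smallest possible). Of 8 pan-T markers tested, 7 had negative values, the groups did not overlap at 4, and limma called 0. Over all tested genes 39.9% had negative values and the groups did not overlap at 17.6%. Cd4 at -0.092, Cd247 at -0.12 and Lat at 0.051 overlapped between the groups (adjusted p in limma = 0.874, 0.851 and 0.928). They were chosen after their values were seen. Thy1, a surface glycoprotein of T cells, had -1.33 (adjusted p = 0.113, and 0.0387 under the date block), and Trac, the T cell receptor alpha constant region, -0.61 (adjusted p = 0.288).

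Set against the CD3 chains within each library, the differences of Cd5 and Icos were smaller than the spread between replicates. The log2 ratio of Cd5 to the CD3 chains was -1.70 ± 0.12 in deficient and -1.65 ± 0.19 in sufficient libraries (SD, n = 3 each), a difference of -0.044 with an exact permutation p of 0.9. That of Icos was 1.21 ± 0.14 in deficient and 1.26 ± 0.37 in sufficient libraries, a difference of -0.057 (exact permutation p = 0.8). Cd28 had -1.89 ± 0.21 in deficient and -2.19 ± 0.23 in sufficient libraries, a difference of 0.30 (exact permutation p = 0.2). That difference had the same sign in undated libraries (0.32) and the dated pair (0.26). Cd28 itself differed by -0.016 and the mean of the CD3 chains by -0.32, so the difference in ratio lies mainly in the CD3 chains. The same fall in the CD3 chains enters the other ratios, and the fold change of Cd40lg itself was 0.21. Cd40lg differed by 0.52 (exact permutation p = 0.3), Cd6 by 0.19 (exact permutation p = 0.5) and Cd2 by 0.092 (exact permutation p = 0.7). All 6 ratios overlapped between the groups, and none had an adjusted p under 0.6.

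**Figure D4:**
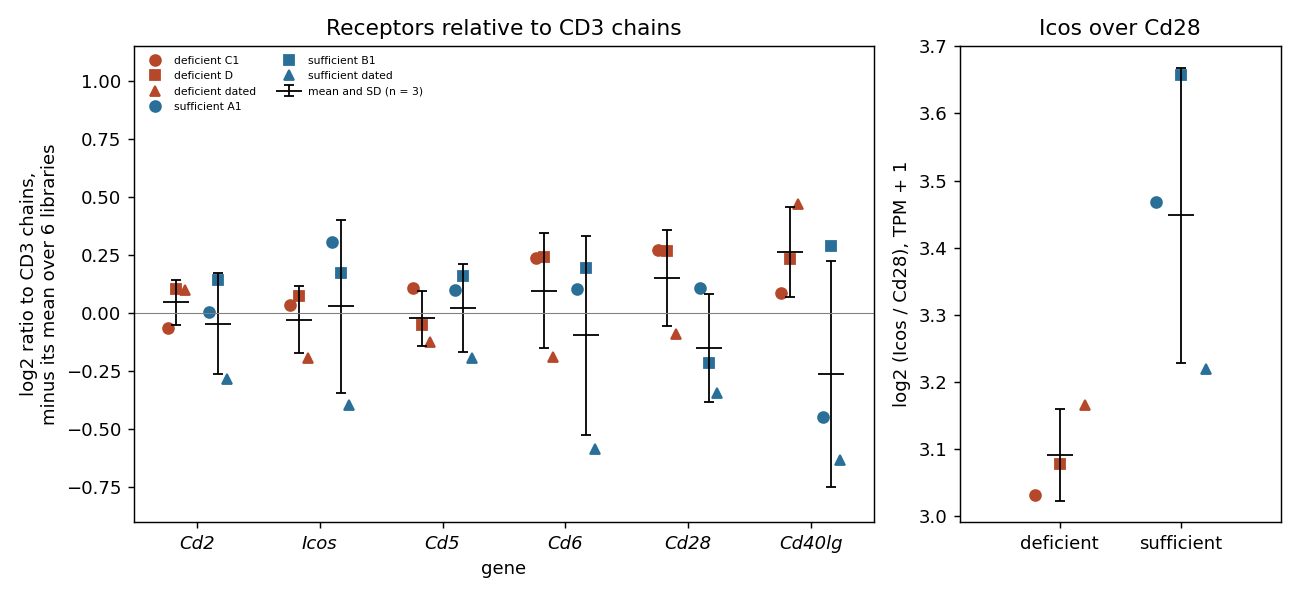
Left, log2 ratio of each transcript to the mean of the 4 CD3 chains within a library, minus its mean over the 6 libraries; right, log2 ratio of Icos to Cd28. Points are libraries, deficient left of sufficient, and black bars show group mean and SD (n = 3); all 6 ratios on the left overlap, and Icos over Cd28 does not, at 3.03 to 3.16 in deficient and 3.22 to 3.66 in sufficient libraries.

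Over the 6 libraries Icos and Cd5 had the closest profiles of any pair of members, and that of Cd40lg stood apart. Likeness was measured as the root mean square difference of log2(TPM + 1) values after each gene's mean was taken off, over 6 libraries whose depth is unknown and whose myeloid content differed. It was 0.14 between Icos and Cd5, and 0.65% of tested genes lay closer to Icos than Cd5 did. It was 0.14 between Cd2 and Cd5 and 0.16 between Icos and Cd6, with 0.798% and 1.10% of genes closer to Cd2 and to Icos. Icos and Cd2 were at 0.18, with 2.17% of genes closer to Icos. Cd5 and its neighbour Cd6 were less alike, at 0.21, with 7.37% of genes closer to Cd5. Cd28 and Icos, which share a locus, were at 0.22, with 14.04% of genes closer to Cd28. Cd40lg was 0.29 from Cd2 and 0.36 to 0.43 from the other 4.

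Over all tested genes, the nearest profiles to Icos were Gtpbp2, Itgb7 (the integrin beta 7 chain) and Gins3 (a subunit of the replicative helicase), at 0.065 to 0.075. The nearest to Cd5 were Ndfip1 (an adaptor of NEDD4 family ubiquitin ligases), Arhgap30 and Stk11 (the kinase LKB1), at 0.036 to 0.051, and to Cd2 Unc13a, Zfp605 and Leprot at 0.054 to 0.059. For Cd28 they were Gtf3c5, Als2cl and Golph3 at 0.051 to 0.053, for Cd6 Agps, Cyren and Pdcd7 at 0.042 to 0.061, and for Cd40lg Tm4sf5, Lfng and Tmem220 at 0.081 to 0.13. Als2cl, Zfp605, Tmem220 and Tm4sf5 lay near the filter on low values, at means of 1.08, 1.01, 1.06 and 1.38 log2(TPM + 1). The median distance of a gene was 0.34 from Cd28 and 0.51 from Cd40lg. With 6 libraries and 12155 genes, such closeness describes these libraries only.

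Of 55 genes written down as ligands, relatives, partners and regulators of the 6 members, 51 were tested. Limma called 0 of the 51, and 13 of the 51 had an unadjusted p under 0.05. That is a larger share than among all tested genes, where 1418 of 12155 (11.7%) did. The lists were written with earlier results of these data known, and no set test was run. Positive values were found at 20 and negative values at 31, with a median of -0.13 beside 0.094 over all genes. Of all tested genes 39.9% had negative values. Groups did not overlap at 14 of them (27.5%), 9 lower and 5 higher in deficient libraries, beside 17.6% of all genes. Cdcp1, Il2, Il21 and Il17a were under the filter on low values.

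Among the relatives and ligands no gene passed. Of the other CD28 family receptors, Ctla4 is described above, Btla had 0.12 and Pdcd1, which encodes PD-1, -0.052 (adjusted p in limma = 0.927 and 0.981); Pdcd1 was chosen after its values were seen. Of 7 tested ligands 5 had positive values and the groups did not overlap at 4. Over all tested genes 39.9% had negative values and the groups did not overlap at 17.6%. Cd80, a ligand of CD28 and CTLA-4, averaged 3.47 ± 0.36 in deficient and 2.79 ± 0.13 in sufficient libraries (SD, n = 3 each), with a fold change of 0.68 (adjusted p in limma = 0.387). Icosl, the ligand of ICOS, had 0.62 (adjusted p = 0.467), and Cd86 -0.22 (adjusted p = 0.693). Cd80, Icosl and Cd86 were chosen after their values were seen.

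Downstream of CD28 and ICOS, 7 of 16 tested genes had positive and 9 negative values, and none was called in limma. Prkcq, the kinase PKC-theta recruited by CD28, stood at 5.84, 6.09 and 5.90 in deficient C1, D and dated, against 5.36, 5.05 and 5.09 in sufficient A1, B1 and dated. The groups lay apart, and the fold change of 0.78 ± 0.17 (SE) did not pass (adjusted p in limma = 0.143, and 0.0528 with the date mark as a block). Lck, the kinase that phosphorylates the CD3 chains and the tails of CD28 and CD5, had -0.50 (adjusted p = 0.256) with no overlap. Grb2, an adaptor bound by CD28, was chosen after its values were seen because a single library decided its call. It stood at 4.28, 4.37 and 6.78 in deficient C1, D and dated, against 5.92, 6.07 and 5.89 in sufficient A1, B1 and dated, with a fold change of -0.82 (adjusted p in limma = 0.622) that was -1.64 without deficient dated (0.0179).

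Of the 13 genes whose products bind or act on CD5 and CD6, 11 had negative values, beside 39.9% of all tested genes. Ptpn6, the phosphatase SHP-1 that has been found with CD5, stood at 5.94, 5.73 and 5.70 in deficient C1, D and dated, against 6.76, 6.60 and 6.69 in sufficient A1, B1 and dated. All deficient libraries lay below all sufficient ones by a margin wider than the spread within a group. The fold change of -0.89 ± 0.15 (SE) did not pass over all genes (adjusted p in limma = 0.0805) but did with a block for the date mark (0.0267) and after quantile normalization (0.0419). Rasa1, a Ras GTPase activating protein that associates with CD5, had -1.12 (adjusted p = 0.127, and 0.0369 with the date mark as a block). Zap70, the kinase recruited to CD3 chains, had -0.77 (adjusted p = 0.176) and was chosen after its values were seen. Among the 4 cytoplasmic partners of CD2, Pstpip1 had -0.33 and Sh3kbp1 0.25 (adjusted p in limma = 0.675 and 0.592).

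Among the 5 factors that destabilise mRNAs including that of Icos, 3 had positive values and limma called 0. Zc3h12a, the endonuclease Regnase-1, had 0.43 (adjusted p = 0.584) and Zfp36l2 0.28 (adjusted p = 0.589), and Rc3h1, which encodes Roquin-1 and was chosen after its values were seen, had -0.22 (adjusted p = 0.825). Of the 5 tested genes on the list of helper cytokines that activated T cells express together with Cd40lg, 4 had negative values. The positive one was not a cytokine gene but Bhlhe40, a transcription factor, at 0.24 (adjusted p in limma = 0.769). Bhlhe40 was named after its values were seen. Ifng averaged 4.75 ± 0.32 in deficient and 6.24 ± 0.87 in sufficient libraries (SD, n = 3 each), a fold change of -1.50 (adjusted p in limma = 0.218). Csf2 had -2.51 (adjusted p = 0.317), and sufficient B1 held its highest value, 6.46, against 3.15 in sufficient A1 and 2.73 in sufficient dated.

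**Figure D5:**
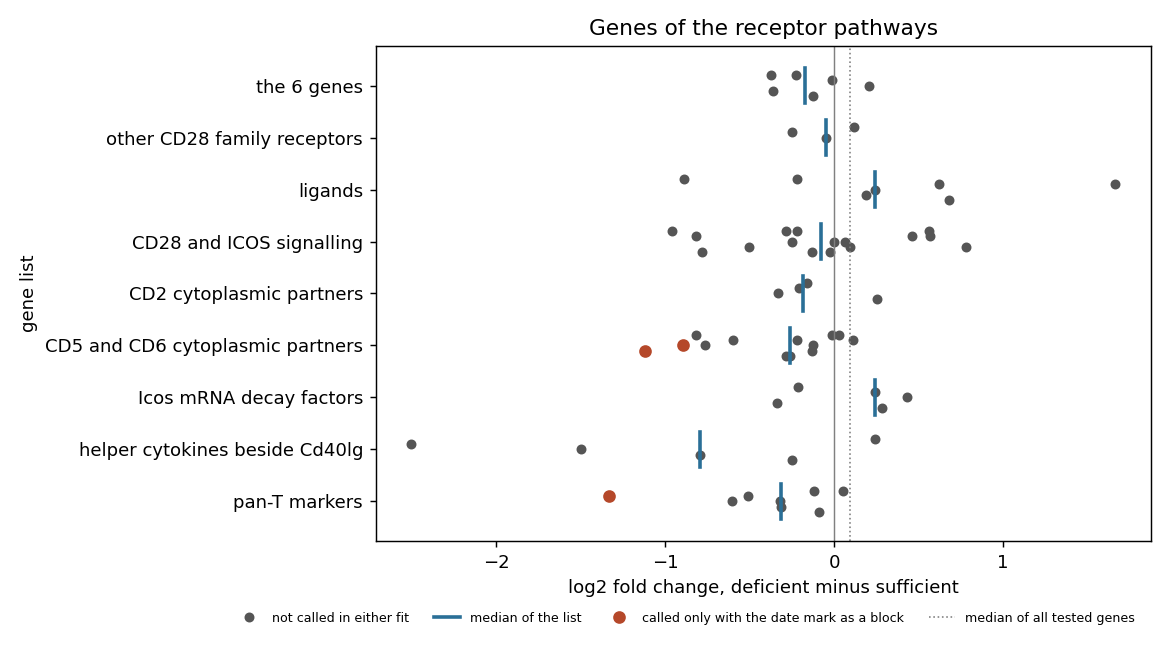
Log2 fold change (deficient minus sufficient) of each tested gene by list, with the median of each list as a blue bar, the median of all 12155 tested genes as a dotted line, and genes that passed only with the date mark as a block in red. The red points are Rasa1 and Ptpn6 among the partners of CD5 and CD6 and Thy1 among the pan-T markers, and no gene shown passed in the fit without a block.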

How the data were processed

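The table as deposited gave log2 values for 55450 genes in 6 libraries. Converted to linear values and reduced by 1, they added up to 999999 to 1000001 per library, which makes them log2(TPM + 1). The submitters' processing notes name STAR, RSEM and limma without versions, and the builds GRCm38 and mm10. All 55450 gene identifiers matched GENCODE mouse release 21 (GRCm38), and 27 symbols turned into dates were repaired. Columns showed a library's group but no replicate number. Genes with a value of at least 1 in at least 3 libraries (12155) were tested with limma 3.58.1 (trended eBayes, R 4.3.3) with no covariate, and called when the Benjamini-Hochberg adjusted p of the two-sided test was under 0.05. Ratios within a library were tested by exact permutation over libraries (scipy 1.17.1). Scripts were tested on simulated data. Alternatives covered filter, pseudocount, scaling, variance model, date mark and left-out libraries. The members, lists and rules were chosen with earlier results of these data known. Named genes were the members, Havcr2, the nearest tested neighbours, the 3 nearest profiles of each member, and from each list calls and the 2 genes of smallest p; marker lists only checked cell content. Genes named outside this rule are said to be chosen after their values were seen. Strand was not stated, so overlapping genes could not be separated.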

Additional observations from a re-analysis of the deposited data

How the results depend on the processing

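No paired analysis was possible because the columns carry no replicate numbers. No member passed in any of the 102 refits (6 members under 17 alternatives), where the smallest adjusted p in limma was 0.144, for Cd5 without the dated libraries. The sign was the main one in 95 of them. It turned for Cd28 (0.021), Cd2 (0.057) and Cd6 (0.082) without the libraries of most myeloid transcripts, and for Cd40lg without the dated libraries (-0.17). With each library left out in turn, fold changes ran from -0.13 to 0.13 for Cd28, -0.57 to -0.22 for Icos, -0.36 to -0.0053 for Cd2, -0.45 to -0.26 for Cd5, -0.35 to -0.0099 for Cd6 and -0.0038 to 0.46 for Cd40lg. The ratio differences then ran from -0.47 to -0.25 for Icos over Cd28, -0.33 to -0.098 for Cd5 over Cd6, and against the CD3 chains from 0.20 to 0.43 for Cd28, -0.27 to 0.082 for Icos, -0.027 to 0.19 for Cd2, -0.15 to 0.025 for Cd5, -0.053 to 0.34 for Cd6 and 0.34 to 0.80 for Cd40lg. Median centring moved the median of all genes to -0.041 (0.094 without it), and gave -0.15 for Cd28, -0.51 for Icos, -0.36 for Cd2, -0.49 for Cd5, -0.26 for Cd6 and 0.073 for Cd40lg. The count of called genes, 25, was 1 with no filter, 38 after quantile normalization, 4 without a variance trend, 240 with the date mark as a block, 215 without the dated libraries and 0 without the libraries of most myeloid transcripts (748 at an unadjusted p under 0.05). It ran from 0 (without deficient D or without sufficient B1) to 121 (without deficient dated) with a library left out. Of the pathway genes, 2 were called with the block (Ptpn6 and Rasa1), and 0 to 1 with a library left out (Grb2 without deficient dated). Ptpn6 was also called after quantile normalization, and Grb2 without the dated libraries. The causes were not tested. Depth is unknown.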
